A study of Mus musculus with 6 samples.

Results

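The unfolded protein and heat shock response was examined as a set of 31 genes, 25 that act in or signal from the endoplasmic reticulum (ER) and 6 that act in the cytosolic heat shock response. Members were the rows of the deposited count table whose gene symbol equalled a name on the list. All 31 were found among the 33000 genes of the table, and 30 passed the filter on low counts that left 15341 genes for testing. The member that did not pass was Trib3, a pseudokinase induced late in ER stress.

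The libraries came from the frontal cortex of mice of the C57BL/6 strain aged 3 months, 3 of them homozygous for the GFAP-IL6 transgene and 3 wild-type (WT). In GFAP-IL6 mice the Gfap promoter drives interleukin 6, a cytokine, in astrocytes, and the study used the line as a model of neuroinflammation. Libraries were made with TruSeq, the Illumina protocol that sequences mRNA along its full length. Each library came from a different mouse, and the labels give no treatment for either group.

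Proteins that enter the secretory pathway fold in the ER with the help of chaperones, lectins and disulfide isomerases. When unfolded protein accumulates there, the sensors IRE1, PERK and ATF6 start the unfolded protein response, which raises chaperone and degradation genes through XBP1, ATF6 and ATF4. Unfolded protein in the cytosol instead releases the factor HSF1, which raises the Hsp70, Hsp90, Hsp110 and Hsp40 genes. In brain, the ER branch has been linked to inflammation and to secretory activity of glia, and the constitutive cytosolic chaperones are abundant in neurons.

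The known response elements of both branches were searched in the promoters of the members, to show which members carry the letters through which each branch is known to act. Promoters were windows of 300 bases, from 250 before to 50 after the start site, taken from RefSeq on the GRCm38.p6 build, and 26 of the 31 members had one. Atf6, Hsp90aa1, Hspa8, Hyou1 and Manf had no entry. The ER stress response element (ERSE) was searched on both strands as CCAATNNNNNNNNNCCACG. It was found in 8 of the 22 ER members with a promoter (36.4%), in 0 of the 4 cytosolic members, and in 0.137% of the 27025 genes with a promoter. The sites follow with 10 bases on either side, 5′ to 3′ on the strand that reads CCAAT first, and capitals mark the fixed letters of the element.
Hspa5 chr2:34772015-34772053, plus strand: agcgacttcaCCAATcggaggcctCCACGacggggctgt
Hsp90b1 chr10:86705523-86705561, plus strand: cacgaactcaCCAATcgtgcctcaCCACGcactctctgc
Hsp90b1 chr10:86705628-86705666, minus strand: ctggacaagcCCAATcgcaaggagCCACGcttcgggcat
Dnajc3 chr14:118937817-118937855, plus strand: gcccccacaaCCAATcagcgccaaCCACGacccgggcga
Calr chr8:84847065-84847103, plus strand: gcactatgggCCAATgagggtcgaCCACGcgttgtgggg
Canx chr11:50325790-50325828, minus strand: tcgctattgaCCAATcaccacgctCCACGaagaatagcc
Pdia6 chr12:17266481-17266519, plus strand: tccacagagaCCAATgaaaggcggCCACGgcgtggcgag
Creld2 chr15:88819510-88819548, minus strand: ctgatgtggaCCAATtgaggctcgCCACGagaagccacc
Syvn1 chr19:6046522-6046560, plus strand: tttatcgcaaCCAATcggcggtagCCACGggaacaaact

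Hspa5 is the best known target of the ER branch. The whole window of its promoter is shown, with the letters of its 1 exact match to the searched ERSE in capitals. Copies that depart from the searched letters were not searched for and are not marked.
Hspa5 promoter chr2:34771840-34772139, plus strand: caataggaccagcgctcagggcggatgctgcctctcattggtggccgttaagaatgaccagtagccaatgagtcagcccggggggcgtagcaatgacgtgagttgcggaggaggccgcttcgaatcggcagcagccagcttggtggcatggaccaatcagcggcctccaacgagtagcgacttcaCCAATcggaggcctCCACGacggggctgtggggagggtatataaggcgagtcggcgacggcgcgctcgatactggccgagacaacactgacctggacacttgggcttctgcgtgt

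The other elements were also searched on both strands. The shorter element ERSE-II, searched as ATTGGNCCACG, was found in Dnajb11 and Herpud1, which is 9.09% of the ER members with a promoter against 0.0444% of all genes. The heat shock element (HSE), 3 alternating repeats searched as GAANNTTCNNGAA, was found in 1 of the 4 cytosolic members with a promoter, Hsph1, and in 0.662% of all genes. Its shorter core GAANNTTC, which lies inside the longer element, was found in Hspa1a, Hspa1b and Hsph1, in 0 ER members and in 9.04% of all genes. The amino acid response element TGATGNAA, read by ATF4, was found in Herpud1 and Trib3, or 9.09% of ER members against 4.51% of all genes, and the element TGACGTGG in 0 ER members against 0.714% of all genes. The sites of ERSE-II and of the heat shock elements follow in the same form, with the fixed letters in capitals. The Hsph1 site is printed on the strand of the gene, where it reads as the reverse complement of the searched element. The sites of Hspa1a and Hspa1b, near-identical neighbours on chromosome 17, read the same.
Dnajb11 chr16:22857842-22857872, plus strand: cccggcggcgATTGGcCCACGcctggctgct
Herpud1 chr8:94386367-94386397, plus strand: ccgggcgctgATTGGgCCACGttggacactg
Hsph1 chr5:149636278-149636310, minus strand: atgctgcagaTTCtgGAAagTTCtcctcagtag
Hspa1a chr17:34972243-34972270, minus strand: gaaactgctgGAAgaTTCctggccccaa
Hspa1b chr17:34959325-34959352, minus strand: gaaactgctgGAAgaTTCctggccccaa

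**Figure D1:**
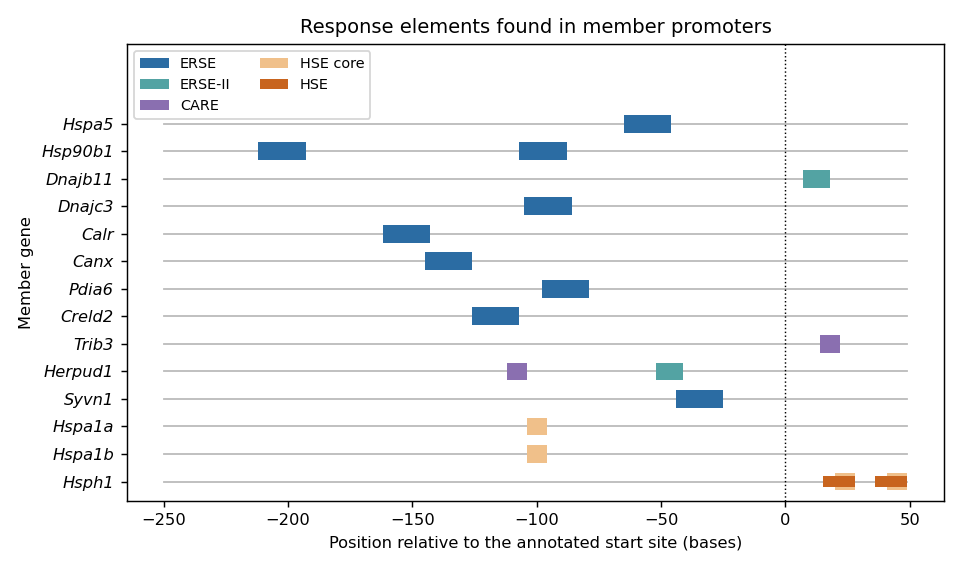
Position in bases from the annotated start site (x axis) of each response element found in a member's promoter (y axis, genes in order of role), with the element given by colour. Blue ERSE bars lie upstream of the start site in 8 ER members, and the Hsph1 site is drawn at 2 positions because RefSeq gives the gene 2 start sites.

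The labels were checked with the transgene. Il6 had 0, 2 and 0 counts in the WT libraries and 12, 10 and 24 in the GFAP-IL6 libraries. Gfap, the astrocyte filament gene, had between 76.4 and 122.6 CPM (counts relative to the library total, scaled by the trimmed mean of M-values, TMM) in WT and between 517 and 869 CPM in GFAP-IL6 libraries. Total counts were between 7559524 and 16877001, and each GFAP-IL6 library was shallower than each WT library, so depth and genotype cannot be told apart. Of the cell type lists, 9 of 10 microglial and 5 of 8 endothelial markers were called higher in GFAP-IL6 libraries, with summed CPM of 423 to 518 in WT and 886 to 1020 in GFAP-IL6 libraries for microglia, and 198 to 223 against 343 to 394 for endothelial cells. The astrocyte list summed to 1160 to 1480 CPM in WT and 1710 to 2300 in GFAP-IL6 libraries, with 1 of 8 markers called. That marker was Gfap, and the other 7 summed to 1080 to 1380 CPM in WT and 1190 to 1430 CPM in GFAP-IL6 libraries, with 4 above 0 and 3 below. Neuronal markers, the defining markers of cortex, summed to 11000 to 12100 and 10500 to 11700 CPM with 0 of 10 called (0 higher and 4 lower at an unadjusted p under 0.05). Immediate early genes, which respond to neuronal activity and handling, summed to 437 to 588 and 697 to 906 CPM with 4 of 10 called. Markers of plasma and B cells, which are rich in ER, summed to 33.7 to 40.9 and 39.5 to 46.2 CPM with 0 of 2 tested markers called (0 at an unadjusted p under 0.05). The part of these lists in the values of the members was not tested, and in bulk tissue fewer cells of a type and less RNA per cell cannot be told apart.

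None of the 30 members tested differed between GFAP-IL6 and WT cortex at an adjusted p under 0.05 (edgeR quasi-likelihood test, Benjamini-Hochberg adjustment over all genes tested), while 2.86% of all genes did. At an unadjusted p under 0.05, 7 members were higher and 0 were lower, which is 23.3% and 0% of the members against 11.1% and 9.37% of all genes. DESeq2, the tool of the study, called 0 members, and 522 of 16477 genes. It had 4 members higher and 1 lower at an unadjusted p under 0.05, and the share of all genes at that threshold was not computed for DESeq2. The 3 libraries of a group did not overlap those of the other for 6 members, all higher in GFAP-IL6 (20% of the members against 13.8% of all genes), and for 0 members in the lower direction (12.7% of all genes). The 7 members of the unadjusted count were Edem1, Hyou1, Syvn1, Xbp1, Hspa1b, Sdf2l1 and Ern1, and those whose groups did not overlap were the same without Hspa1b. The unadjusted count of 7 was 3 without GFAP-IL6 replicate 2, 3 without GFAP-IL6 replicate 3 and 4 without WT replicate 1. Calls over all genes at an adjusted p under 0.05 also changed at these settings, to 282, 187 and 1061, against 439. The share of all genes at an unadjusted p under 0.05 was not computed for them.

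The intervals of the members were narrow. Errors after ± are SE for log2 fold changes and SD over the 3 libraries of a group for CPM. Standard errors of the log2 fold change were between 0.075 and 0.23, with a median of 0.099, and the 95% interval lay within 1 log2 unit of 0 for 29 of 30 members and within 0.5 for 26 of 30. The lowest lower bound was -0.45, for Dnajb9, and the highest upper bound was 1.03, for Hspa1b. In the plot of intervals most members straddle 0.

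**Figure D2:**
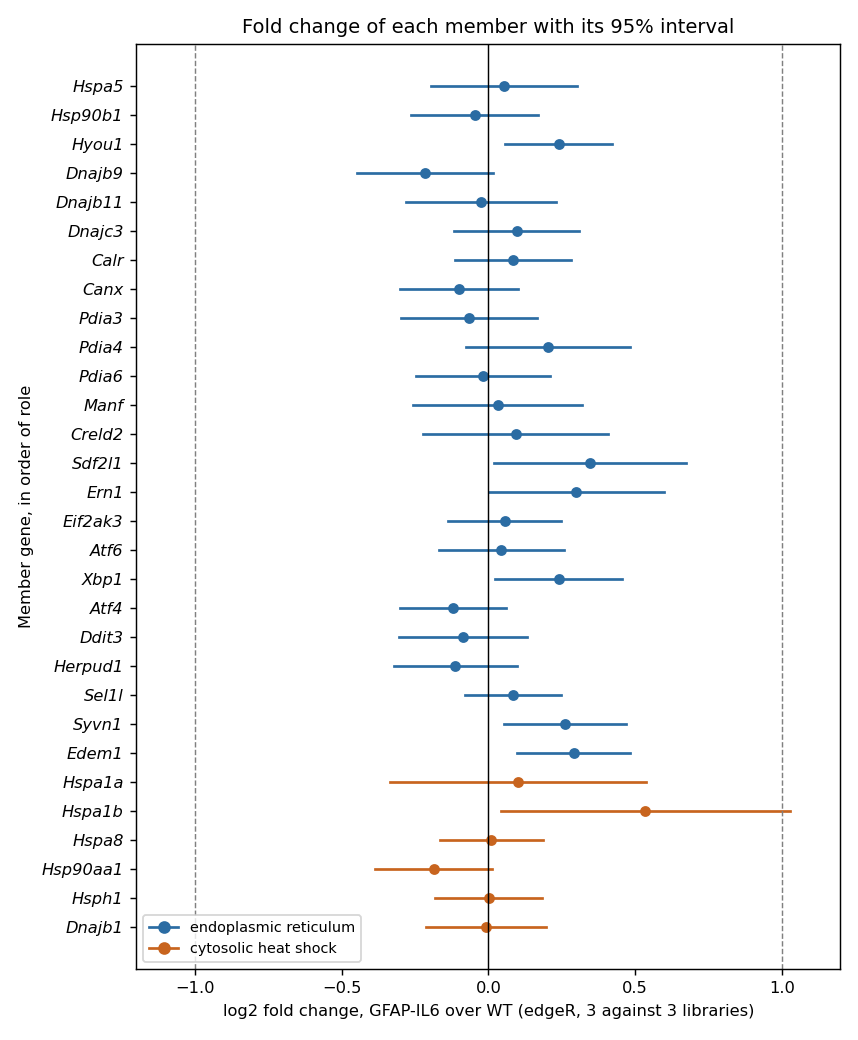
Log2 fold change of GFAP-IL6 over WT (x axis) for each tested member (y axis), points with 95% intervals from edgeR over 3 against 3 libraries, ER members in blue and cytosolic members in orange, dashed lines at 1 log2 unit. Intervals of 29 of 30 members lie between the dashed lines, and the exception is Hspa1b.

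The median log2 fold change was 0.055 over the 24 ER members tested and 0.0054 over the 6 cytosolic members, against -0.0038 over all genes. Of the ER members 15 of 24 lay above 0, and of the cytosolic members 4 of 6, while 49.4% of all genes did. The ER median exceeded the cytosolic median by 0.050, a difference that was 0.0040 without WT replicate 1 and 0.017 without GFAP-IL6 replicate 2. The ER median itself was 0.014 without WT replicate 1 and -0.020 without GFAP-IL6 replicate 2. Summed over its members, the ER group had 2480, 2928 and 2720 CPM in the WT libraries and 2568, 2866 and 2828 CPM in the GFAP-IL6 libraries. The cytosolic group had 1462, 1608 and 1390 CPM in WT and 1368, 1540 and 1410 CPM in GFAP-IL6 libraries. Both sums overlapped between the groups. The ratio of the ER sum to the cytosolic sum averaged 1.82 ± 0.131 (SD) over the 3 WT libraries and 1.92 ± 0.0793 (SD) over the 3 GFAP-IL6 libraries, a difference smaller than the SD of the WT libraries.

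**Figure D3:**
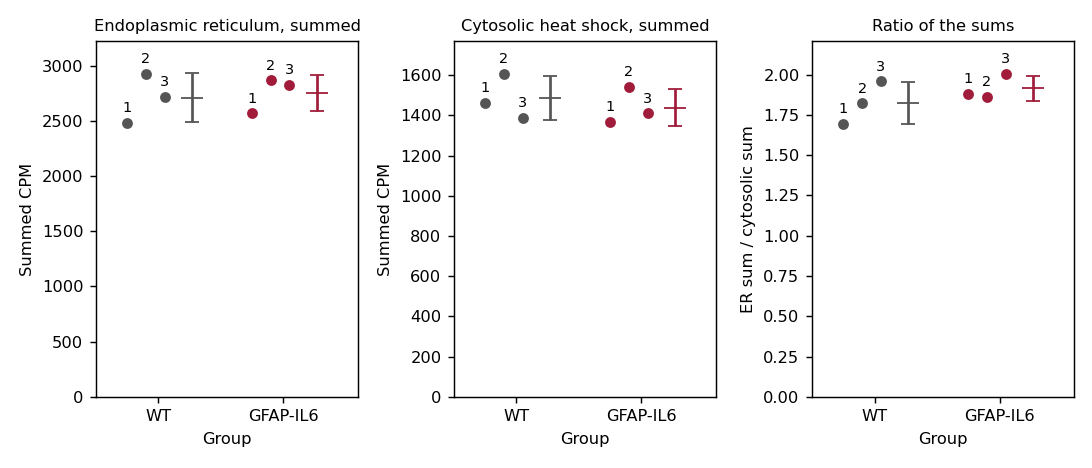
Summed TMM-scaled CPM of the 24 ER members (left), of the 6 cytosolic members (middle) and their ratio (right) by group, points numbered by replicate, bars the mean and SD of 3 libraries, y axes from 0. The groups overlap in all 3 panels.

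The ER Hsp70 and Hsp90 chaperones bind newly made chains in the lumen. Hspa5 (BiP), the master chaperone that also holds the stress sensors inactive, lies at chr2:34771970-34777547 (GRCm38) and had 217, 287 and 249 CPM in the WT libraries and 223, 280 and 279 CPM in the GFAP-IL6 libraries. The groups overlapped, and the log2 fold change was 0.05 ± 0.12 (SE; edgeR adjusted p = 0.823). Hsp90b1 (GRP94), the Hsp90 of the ER, had 321, 417 and 346 CPM in WT and 327, 363 and 359 CPM in GFAP-IL6 libraries, a log2 fold change of -0.05 ± 0.10 (adjusted p = 0.824, edgeR). The values of the GFAP-IL6 libraries lay inside the WT range. Hyou1, a large Hsp70 relative that exchanges nucleotide on BiP, had 105, 93.6 and 101 CPM in WT and 112, 117 and 125 CPM in GFAP-IL6 libraries. Every GFAP-IL6 library lay above every WT library, with a log2 fold change of 0.24 ± 0.084 (edgeR adjusted p = 0.144; exact two-sided permutation p = 0.1, the smallest that 3 against 3 libraries allow).

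The J-domain co-chaperones hand clients to BiP. Dnajb9 (ERdj4) had the lowest fold change of the members, with 39.4, 49.3 and 45.8 CPM in WT and 34.4, 40.5 and 41.5 CPM in GFAP-IL6 libraries, a log2 fold change of -0.22 ± 0.11 (edgeR adjusted p = 0.271), and the groups overlapped. Dnajc3 (p58IPK), an inhibitor of PERK as well as a co-chaperone, had 68.2 ± 8.66 CPM in WT and 73.1 ± 3.05 CPM in GFAP-IL6 cortex (mean ± SD, n = 3), a log2 fold change of 0.10. Dnajb11 (ERdj3), the co-chaperone that binds clients directly, had 51.4 ± 8.99 and 50.8 ± 3.23 CPM, a log2 fold change of -0.02. For both genes the SD of the WT libraries exceeded the difference of the means.

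The lectin chaperones retain glycoproteins until they fold. Calreticulin (Calr), the soluble form, had 301, 363 and 319 CPM in WT and 318, 361 and 363 CPM in GFAP-IL6 libraries. Calnexin (Canx), the membrane form, had 350, 439 and 395 CPM in WT and 346, 384 and 375 CPM in GFAP-IL6 libraries. Their log2 fold changes were 0.08 and -0.10, on opposite sides of 0 and with overlapping groups. Among the disulfide isomerases, Pdia4 (ERp72) had 30.4, 39.7 and 41.7 CPM in WT and 36.6, 45.6 and 47.6 CPM in GFAP-IL6 libraries, with a log2 fold change of 0.20 ± 0.13 (edgeR adjusted p = 0.385) and overlapping groups. Pdia3 (ERp57), which works with the lectins, had 196 ± 31.5 and 188 ± 9.17 CPM, a log2 fold change of -0.07. Pdia6 (P5), an isomerase that binds BiP, had 99.1 ± 14.4 and 98.0 ± 5.66 CPM, a log2 fold change of -0.02. In both the WT libraries varied more than the GFAP-IL6 libraries.

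Of the small ER stress proteins, Sdf2l1, a partner of the ERdj3 complex, had the largest fold change of the ER members. It had 7.74, 10.1 and 9.40 CPM in WT and 10.2, 12.7 and 12.3 CPM in GFAP-IL6 libraries. GFAP-IL6 replicate 1 exceeded WT replicate 2 only narrowly, and the log2 fold change was 0.35 ± 0.15 (edgeR adjusted p = 0.220). Manf, a secreted protein that protects neurons, had 37.5 ± 6.18 CPM in WT and 38.6 ± 5.70 CPM in GFAP-IL6 cortex, a log2 fold change of 0.03. Creld2, a secreted target of the ER branch, had 13.8 ± 1.69 and 14.9 ± 2.51 CPM, a log2 fold change of 0.09. Both overlapped between the groups.

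All 3 sensors had fold changes above 0, none of which passed the test. Ern1, which encodes the IRE1 kinase and endonuclease that splices Xbp1 mRNA, had 15.7, 11.8 and 16.1 CPM in WT and 17.6, 16.5 and 19.2 CPM in GFAP-IL6 libraries. The groups did not overlap, WT replicate 2 lay apart from the other WT libraries, and the log2 fold change was 0.30 ± 0.14 (edgeR adjusted p = 0.241), or 0.16 without WT replicate 2. Eif2ak3 (PERK), the kinase that halts translation through eIF2, had 29.3 ± 0.920 CPM in WT and 30.5 ± 1.42 CPM in GFAP-IL6 cortex, a log2 fold change of 0.06. Atf6, the factor cleaved in the Golgi, had 115 ± 9.61 and 119 ± 13.3 CPM, a log2 fold change of 0.04. The groups overlapped for both.

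Xbp1, whose spliced form is the factor of the IRE1 branch, lies at chr11:5520659-5525893 and had 72.1, 78.6 and 80.8 CPM in WT and 82.4, 86.4 and 104.8 CPM in GFAP-IL6 libraries. GFAP-IL6 replicate 3 stood highest and the other 2 lay just above the WT range, with a log2 fold change of 0.24 ± 0.10 (edgeR adjusted p = 0.206), or 0.13 without GFAP-IL6 replicate 3. Gene counts do not separate spliced from unspliced Xbp1.

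The factors of the PERK branch had fold changes below 0 that did not pass the test. Atf4, the factor translated when eIF2 is phosphorylated, had 115, 123 and 132 CPM in WT and 108, 116 and 115 CPM in GFAP-IL6 libraries, a log2 fold change of -0.12 ± 0.083 (edgeR adjusted p = 0.425). Ddit3 (CHOP), the pro-apoptotic target of ATF4, had 21.8, 22.8 and 24.1 CPM in WT and 20.7, 21.0 and 23.3 CPM in GFAP-IL6 libraries, a log2 fold change of -0.09 ± 0.10 (edgeR adjusted p = 0.659). Both genes overlapped between the groups. The counts of Trib3, a target of ATF4 and CHOP, were 3, 12 and 8 in the WT and 4, 2 and 5 in the GFAP-IL6 libraries, and a difference was not detectable at this depth.

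The degradation genes had the highest median of the ER roles, 0.17 over 4 genes. Edem1, a lectin that takes misfolded glycoproteins out of the folding cycle, had the smallest p of the members and lies at chr6:108828641-108859356. It had 25.1, 26.3 and 27.5 CPM in WT and 32.9, 31.1 and 32.7 CPM in GFAP-IL6 libraries, a log2 fold change of 0.29 ± 0.089 (edgeR p = 0.00645, adjusted p = 0.107; exact permutation p = 0.1, the smallest possible). The gap between the groups was wider than the range within either. Syvn1 (HRD1), the ubiquitin ligase of the ER membrane, had 48.8, 40.5 and 48.5 CPM in WT and 51.4, 58.4 and 55.5 CPM in GFAP-IL6 libraries, a log2 fold change of 0.26 ± 0.096 (edgeR adjusted p = 0.163), or 0.17 without WT replicate 2. Its groups did not overlap. Sel1l, its partner, had 211 ± 7.35 CPM in WT and 224 ± 6.80 CPM in GFAP-IL6 cortex, a log2 fold change of 0.08, and the groups overlapped. Herpud1, another part of the HRD1 complex, had 52.3 ± 2.78 and 48.6 ± 5.81 CPM, a log2 fold change of -0.11, also with overlapping groups. Over the processing alternatives the lowest adjusted p was 0.0734 for Hyou1, 0.084 for Edem1 and 0.0848 for Syvn1.

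Of the cytosolic genes other than Hspa1a and Hspa1b, none passed the test, and the largest fold change in size was that of Hsp90aa1. Hspa8 (Hsc70), the constitutive Hsp70, had 670, 713 and 637 CPM in WT and 642, 722 and 670 CPM in GFAP-IL6 libraries, a log2 fold change of 0.01 ± 0.081 (edgeR adjusted p = 0.959). Hsp90aa1, the inducible cytosolic Hsp90, had 441, 500 and 414 CPM in WT and 379, 433 and 379 CPM in GFAP-IL6 libraries, a log2 fold change of -0.19 ± 0.092 (edgeR adjusted p = 0.272). Its groups overlapped through GFAP-IL6 replicate 2. Dnajb1 (Hsp40), a co-chaperone induced by HSF1, had 52.8, 55.9 and 45.6 CPM in WT and 49.7, 54.3 and 49.7 CPM in GFAP-IL6 libraries, a log2 fold change of -0.01 ± 0.094 (edgeR adjusted p = 0.972). Hsph1 (Hsp110), a nucleotide exchange factor of Hsp70, had 301 ± 23.9 CPM in WT and 301 ± 15.7 CPM in GFAP-IL6 cortex.

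The stress-inducible Hsp70 genes, Hspa1a at chr17:34969190-34972156 and Hspa1b at chr17:34956436-34959238, were near the bottom of the members in level. Hspa1b had 4.52, 5.36 and 3.45 CPM in WT and 5.28, 8.31 and 6.02 CPM in GFAP-IL6 libraries, and the groups overlapped between WT replicate 2 and GFAP-IL6 replicate 1. Its log2 fold change of 0.54 ± 0.23 was the largest of the members (edgeR adjusted p = 0.210), and it was 0.34 without GFAP-IL6 replicate 2. Hspa1a had 5.39, 4.71 and 4.01 CPM in WT and 5.37, 5.54 and 4.12 CPM in GFAP-IL6 libraries, a log2 fold change of 0.10 ± 0.20 (edgeR adjusted p = 0.809). Of the 75-base windows of Hspa1a transcripts 52.7% also occur in Hspa1b, and 55.8% of those of Hspa1b in Hspa1a. The paper describes counting of uniquely aligned reads for its 3′-end libraries, and gives no read length for the TruSeq libraries. If only such reads were counted here too, reads inside shared windows are missing from both genes, so both counts are uncertain. With the counts of both summed into 1 row, the log2 fold change was 0.33 ± 0.17 (edgeR adjusted p = 0.286). The sum does not restore reads that were left out of both. Shared windows also made up 42.8% of Hsp90aa1 and 33.0% of Hspa8, while 19.0% of Hspa1a and 10.3% of Hsp90b1 exon bases overlapped a gene on the opposite strand.

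Levels were compared between genes in TPM, which divides by gene length. TPM does not correct for windows shared with other genes, which may lower counts unequally. They made up 61.7% of Hspa1a, 55.8% of Hspa1b, 42.8% of Hsp90aa1 and 33.0% of Hspa8, so the order of these genes is approximate. Over all 6 libraries Hspa8 was highest at a mean of 804 TPM, followed by Calr at 440 TPM, Hsp90b1 at 358 TPM and Hsp90aa1 at 357 TPM. Spread was judged between neighbours in this order, by the means and SD of the WT libraries. By that measure Hsp90b1 and Hsp90aa1 did not differ beyond their spread, nor did the run of Hsph1, Pdia3, Atf4 and Hspa5 between 203 and 194 TPM. In GFAP-IL6 libraries Hsph1 had 208 ± 8.95 TPM and Pdia3 198 ± 7.79 TPM (mean ± SD), a gap wider than either SD. The lower end held Edem1 at 14.3 TPM, Ern1 at 5.66 TPM, Hspa1b at 5.60 TPM, Hspa1a at 4.67 TPM and Trib3 at 0.618 TPM. Ern1, Hspa1b and Hspa1a did not differ beyond their spread in WT. In GFAP-IL6 libraries Hspa1b had 6.80 ± 1.59 TPM and Hspa1a 4.93 ± 0.771 TPM (mean ± SD), a gap wider than either SD. Hspa8 thus exceeded the stress-inducible copies of Hsp70 in both genotypes, at 781 TPM in WT against 4.41 TPM for Hspa1a.

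Within each genotype most ER folding genes ordered the libraries in the same way. Of the 14 chaperones, co-chaperones, lectins, isomerases and small stress proteins, WT replicate 1 held the lowest WT value for 12 and WT replicate 2 the highest for 11, against 37.4% and 41.5% of all genes tested. Hyou1 had the opposite WT order, with its highest WT value in WT replicate 1 and its lowest in WT replicate 2. GFAP-IL6 replicate 1 held the lowest value of its group for 14 of 14, against 30.6% of all genes. GFAP-IL6 replicate 2 held the highest for 9, against 34.3% of all genes. The fold between the highest and the lowest WT library was 1.30 in the median over these genes. The 10 sensors, factors and degradation genes had a smaller WT range, 1.12 in the median, and WT replicate 3 was their highest WT library for 8 of 10, against 24.4% of all genes.

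The cytosolic genes shared with the ER folding genes the library that was most often highest in each group, and differed in the lowest WT library. WT replicate 2 was highest for 5 of 6, against 41.5% of all genes, and WT replicate 3 was lowest for 6 of 6, against 27.7%. GFAP-IL6 replicate 2 was highest for 6 of 6, against 34.3% of all genes, and GFAP-IL6 replicate 1 lowest for 4 of 6, against 30.6%. Members that share a library also share its depth and tissue composition, so these counts describe the libraries and are not independent of each other. The oligodendrocyte list, with summed CPM between 3390 and 6230 in WT and between 3440 and 5350 in GFAP-IL6 libraries, and the choroid plexus list, between 3.65 and 611 in WT and 5.35 and 59.3 in GFAP-IL6 libraries, also varied within the groups. The astrocyte list had a median log2 deviation from the WT mean of -0.239, 0.168 and 0.0256 in the WT libraries. In the GFAP-IL6 libraries it was -0.124, 0.119 and 0.234. A list of blood genes had -0.223, 0.1775 and -0.028 in WT, and -0.456, 0.063 and -0.386 in GFAP-IL6 libraries. By this deviation, of the GFAP-IL6 libraries, the microglial and oligodendrocyte lists were lowest in replicate 2 and the neuronal and choroid plexus lists in replicate 3. The endothelial list was lowest in GFAP-IL6 replicate 1 by the deviation. By summed CPM the microglial list was lowest in GFAP-IL6 replicate 1, at 885.7 against 886.7 in replicate 2. The part of these lists in the order of the libraries was not tested.

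**Figure D4:**
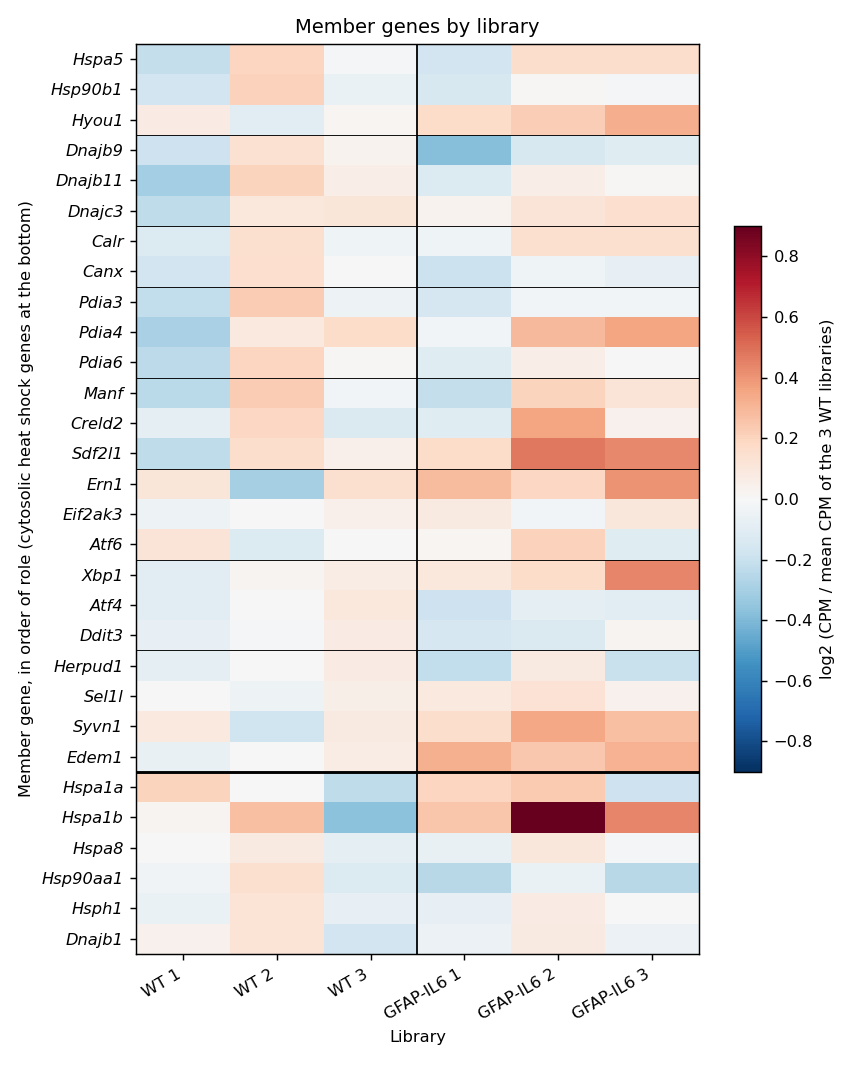
Log2 ratio of each library's TMM-scaled CPM to the mean of the 3 WT libraries (colour) for the 30 tested members (rows, in order of role, cytosolic genes below the thick line) in the 6 libraries (columns). Among the ER folding genes in the top 14 rows the columns WT 1 and GFAP-IL6 1 are mostly blue and WT 2 mostly red, and Hspa1b in GFAP-IL6 replicate 2 is the darkest cell.

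Fold changes were also read by the presence of the ERSE sites printed above. The 8 ER members with an ERSE had a median log2 fold change of 0.069, with 5 above 0, and the 13 tested ER members whose promoter held none had a median of 0.056, with 7 above 0. The range within WT was 1.26-fold in the median for the first and 1.15-fold for the second. Of the 37 genes with an ERSE in the whole set of promoters 16 were tested. These 16 include the 8 members, and the 8 that are no members had a median log2 fold change of 0.25, with 6 above 0. Their values lay between -0.22 and 0.51, and 0 of the 8 were called at an adjusted p under 0.05. Derl3 is among them, is also on the pathway list below, and was low, at 0.895 CPM in WT and 1.18 CPM in GFAP-IL6 cortex.

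Other genes of the same pathways were read from a list of 135 genes found in the table, of which 132 were tested. By edgeR 0 were called at an adjusted p under 0.05, and the unadjusted p was under 0.05 for 7 higher and 19 lower genes (5.3% and 14.4%, against 11.1% and 9.37% of all genes). DESeq2 called 1, beside 522 of 16477 genes. Without WT replicate 1 edgeR called 5, beside 1061 of 15524 genes. The median log2 fold change was -0.061. The translocon and signal peptidase genes, which pass new chains into the ER, had a median of -0.15 over 18 genes, with 6 lower and 0 higher at an unadjusted p under 0.05. The 8 mitochondrial chaperones had a median of -0.13, with 3 lower and 0 higher. Stress signalling and integrated stress response genes had a median of 0.067 over 29 genes, with 4 higher and 1 lower.

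The other pathway roles lay closer to 0. The 27 further ER folding and redox genes had a median of -0.017 (0 higher, 2 lower at an unadjusted p under 0.05), the 18 degradation genes -0.078 (1 higher, 2 lower) and the 32 cytosolic heat shock genes -0.071 (2 higher, 5 lower). The following 4 genes were chosen after their values were seen, as those with the smallest p. Spcs1 and Sec11c, subunits of the signal peptidase, had log2 fold changes of -0.46 ± 0.13 (edgeR adjusted p = 0.0967) and -0.39 ± 0.12 (edgeR adjusted p = 0.0983). Hspb1 (Hsp25), a small heat shock protein also made by reactive astrocytes, was at 0.87 ± 0.26 (edgeR adjusted p = 0.0979), with a mean of 1.76 CPM (SD 0.357) across WT and 3.22 CPM (SD 0.455) across GFAP-IL6 libraries. Asns, the asparagine synthetase gene that ATF4 is known to induce, was at -0.26 ± 0.086 (edgeR adjusted p = 0.128).

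**Figure D5:**
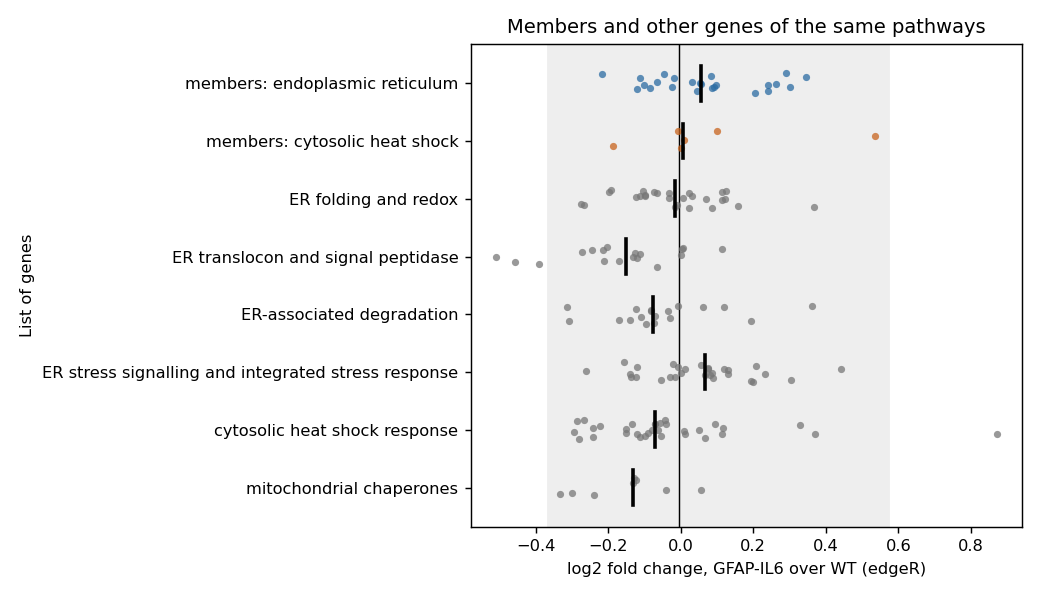
Log2 fold change of GFAP-IL6 over WT (x axis) of each tested gene by list (y axis), with black bars for list medians, a thin line for the median of all genes and grey shading for their 5th to 95th percentile. Most members and pathway genes lie within the shading, and the translocon list has the lowest median, -0.15.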

How the data were processed

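The authors deposited counts, a whole-number table of reads per gene with 1 column per library, together with the length of each gene. Alignment used STAR 2.4 and the mouse genome mm10, and featureCounts assigned reads to genes. The submitters' processing notes name hg19, which is a human build. Whether counting used the strand is not given in the sources used here. Groups and replicate numbers came from the sample titles.

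Counts were tested with edgeR 4.0.16 in R 4.3.3 (TMM scaling, filterByExpr, quasi-likelihood F-test, Benjamini-Hochberg adjustment over 15341 genes), with no covariate. DESeq2 1.42.0, the tool of the authors, was an alternative, beside other filters and scalings, thinning to the smallest total, a replicate block and leaving out each library. Standard errors came from the F statistic. A count of 3 corresponded to 0.179 to 0.396 CPM; this floor covers counting error only. TPM used the deposited lengths. No pair of libraries agreed within sampling noise (chi-square per degree of freedom between 2.23 and 20.1 over 15 pairs). Sequences were RefSeq promoters and gene positions GENCODE M21 on GRCm38.

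Members and lists were chosen with earlier results of these data known. By rule, values in every library are given for Hspa5, Hsp90b1, Xbp1, Atf4, Ddit3, Hspa1a, Hspa1b, Hspa8, Hsp90aa1 and Dnajb1 as best known, and for the 3 members with the smallest p of the ER and of the cytosolic group. They were added for Dnajb9, Calr, Canx, Pdia4, Sdf2l1, Ern1 and Trib3, and the other members are given by mean and SD. Tested on simulated counts for GFAP-IL6 against WT with 15353 genes, edgeR recovered 85% of 100 genes changed by a log2 fold change of 1 and 98% of 100 changed by 2, and 6.15% of its calls were false. Changes below 1, the size of those of all members, were not simulated, so these rates do not give the recovery at that size. The p-values of edgeR set the difference between the groups against the spread of libraries within a group, estimated with the help of all genes tested. Columns of other samples numbered 0.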

Additional observations from a re-analysis of the deposited data

How the results depend on the processing

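The count of members called stayed at 0 under all 13 alternatives, and the unadjusted count was between 3 and 8 higher and between 0 and 2 lower. The share of all genes at an unadjusted p under 0.05 was not computed for the alternatives, so these unadjusted counts have no background beside them. The ER median was between -0.020 and 0.11, the cytosolic median between -0.037 and 0.063 and their difference between 0.0040 and 0.077. The pathway count of 0 became 2 without the low-count filter, 1 with DESeq2 and 2 with the replicate block. It was between 0 and 5 when 1 library was left out, with 5 without WT replicate 1 (Ssr3, Spcs1, Sec11c, Selk and Dnajb6). Calls over all genes rose at that setting too, to 1061 of 15524 from 439 of 15341. The cause was not tested. Over all genes, calls ranged from 187 without GFAP-IL6 replicate 3 to 1154 without the filter, against 439.

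The sign changed in 32 of 392 values, in 13 of 30 members, each with a log2 fold change of at most 0.10 in size. By setting, Atf6 was at -0.019 after thinning, Dnajb1 at 0.016 and Pdia6 at 0.0038 with library totals only, and Hsph1 at -0.0020 without the filter and -0.0034 with DESeq2. With 1 library left out, the log2 fold change ranged from -0.043 to 0.12 for Atf6, from -0.040 to 0.20 for Creld2, from -0.089 to 0.059 for Dnajb1, from -0.15 to 0.084 for Dnajb11 and from -0.0010 to 0.15 for Dnajc3. It ranged from -0.12 to 0.068 for Hsp90b1, from -0.0045 to 0.22 for Hspa1a, from -0.039 to 0.16 for Hspa5, from -0.038 to 0.052 for Hspa8 and from -0.037 to 0.068 for Hsph1. The ranges were -0.070 to 0.16 for Manf, -0.16 to 0.064 for Pdia3 and -0.12 to 0.083 for Pdia6.

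With the replicate number as a block, 0 members and 2 pathway genes were called, and 750 genes over all genes tested, against 439 without the block. The deviations of same-numbered libraries correlated at 0.112, 0.0172 and 0.0351, and 4 of 6 libraries correlated best with their own number. These values do not decide whether the numbers are pairs. The sample titles state no pairing, and the main test used none. Depth limited Trib3, and the 3 libraries per group limit every interval.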
